A study of Homo sapiens with 6 samples.

Results

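Of the 26748 genes in the table, 10 genes of the pigment cell lineage were followed: MITF, SOX10, PMEL, DCT, TYR, TYRP1, MLANA, S100B, GPNMB and RAB27A. They were listed by name, and all 10 had a row once Ensembl identifiers were matched to symbols. RNA came from M14, an established human melanoma cell line. One group of 3 libraries came from cells attached to the dish (2D), the other 3 from melanospheres grown without attachment (3D). The libraries are called 2D-1 to 2D-3 and 3D-1 to 3D-3 after their replicate numbers. No treatment, added gene or time point is named in the labels, so culture is the only labelled difference, and 2D serves as the reference. The labels do not say whether replicates were separate cultures, and p-values therefore rest on a spread among libraries that may be technical.

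Melanocytes make melanin in a specialised lysosome-related organelle, the melanosome. MITF, a basic helix-loop-helix transcription factor, is the main regulator of this lineage. It is itself activated by SOX10, a neural crest transcription factor, together with PAX3 and cAMP signalling. MITF in turn binds short E-box elements, among them the M-box, in the promoters of the pigment enzyme genes TYR, TYRP1 and DCT. PMEL builds the fibrils of the organelle, MLANA is a membrane protein of early melanosomes, and RAB27A links mature melanosomes to the actin cytoskeleton. S100B and SOX10 are used as melanoma markers in pathology, and melanoma cells can lose much of this programme and still be viable.

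Each library held between 16567763 and 19954987 gene-assigned reads. Values are normalised counts, that is, read counts divided by 1 size factor per library, and 1 read was worth 0.928 to 1.07 normalised counts. The library labelled 2D-3 stood apart: its log2 values correlated across genes at 0.943 and 0.945 with the other 2D libraries and at 0.928 to 0.935 with the 3D libraries, while 2D-1 and 2D-2 correlated at 0.984. Genes are not independent replicates, and these values describe the libraries only. Results that rest on 2D-3 are given with and without it.

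The M-box is shown first, because it connects the regulator with its classical target genes among the 10. The 250 bases before the RefSeq gene starts (GRCh38.p14) were searched on both strands for TCATGTG, the core of the M-box. A RefSeq start window was matched for 7 of the 10 genes, with 14 windows in all. SOX10, PMEL and S100B had no entry. The motif was found upstream of a RefSeq start of 4 genes, DCT, GPNMB, TYR and TYRP1, against 2.52% of all 35116 windows and 3.11% of all 27305 genes with a window. Each site is printed 5′ to 3′ with 10 bases on either side, on the strand that reads TCATGTG, with the motif in capitals. In all of them other than the second GPNMB site, CT follows the capitals. The DCT sites lie outside the GENCODE 29 gene interval, while the TYR, TYRP1 and GPNMB sites lie inside theirs, which begin farther upstream than the RefSeq starts. All 250 window bases of TYR and 212 of 250 of GPNMB are annotated exon in GENCODE 29, including their printed sites, whereas the TYRP1 site is in no annotated exon.
TYR, chr11:89177760-89177786, plus strand: gaaaagtcagTCATGTGcttttcagag
TYRP1, chr9:12693230-12693256, plus strand: tggaagggaaTCATGTGctgatcaagt
DCT, chr13:94479801-94479827, minus strand: gcactttgggTCATGTGctaatgatga
DCT, chr13:94479881-94479907, plus strand: ttatctgggcTCATGTGctccagccaa
GPNMB, chr7:23246642-23246668, minus strand: ctcttacaacTCATGTGcttatgactc
GPNMB, chr7:23246703-23246729, minus strand: tcggggaggaTCATGTGatggtattaa
A match is a description of these letters, not a site bound in these cells. TYR, TYRP1 and DCT are known for this element, so the shares over all windows and genes do not measure an enrichment.

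For MITF itself, 1 of 3 RefSeq start windows held the cAMP response element TGACGTCA, which 1.65% of all windows hold. That element is where cAMP signalling is known to act on the melanocyte start of MITF. The window is printed because the deposited counts sum all MITF starts and cannot tell the melanocyte form from the others. It is given on the plus strand up to the first annotated exon base, with the element in capitals.
MITF, chr3:69936342-69936586: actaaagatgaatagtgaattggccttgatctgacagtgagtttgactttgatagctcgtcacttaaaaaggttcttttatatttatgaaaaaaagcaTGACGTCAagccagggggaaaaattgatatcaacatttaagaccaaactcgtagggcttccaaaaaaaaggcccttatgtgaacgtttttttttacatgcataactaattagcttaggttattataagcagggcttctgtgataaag
The core SOX motif ACAAT, searched on both strands, was found before 4 of the 7 genes with a window (MITF, DCT, TYR and RAB27A). It was held by 24.6% of all windows and 28.8% of all genes with a window. The palindromic E-box CACGTG was found before none of the 7 genes with a window, and 6.34% of all windows and 7.73% of all genes with a window hold it.

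The 10 genes fell into separate ranges of expression. GPNMB, PMEL, MITF and RAB27A had 222 to 2410 normalised counts in every library. DCT lay between 38.4 and 118 in 2D and near 0 in 3D. SOX10, MLANA, TYR, TYRP1 and S100B had a mean under 10 over the 6 libraries and were therefore not tested, which left 5 of the 10 genes tested. Per kilobase of exon, which allows genes to be compared, the order of mean levels in 2D was GPNMB (330 ± 89.6 normalised counts per kilobase, SD, n = 3), MITF (157 ± 30.0), RAB27A (143 ± 48.2), PMEL (111 ± 71.7), DCT (9.28 ± 5.62), TYR (4.89 ± 5.56), SOX10 (4.33 ± 4.90), S100B (3.54 ± 4.93), TYRP1 (3.35 ± 0.265) and MLANA (3.32 ± 2.06). In 2D, the libraries of GPNMB did not overlap those of MITF, and those of PMEL did not overlap those of DCT. All other neighbours in that order overlapped.

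In 3D the order per kilobase began with PMEL (274 ± 102 normalised counts per kilobase, SD, n = 3), followed by RAB27A (79.2 ± 12.9), GPNMB (56.6 ± 27.2) and MITF (40.2 ± 2.65). MLANA (2.68 ± 1.87) and SOX10 (0.686 ± 0.656) came next, and TYRP1, S100B, TYR and DCT had 0.518 or less. Neighbours in 3D did not overlap between PMEL and RAB27A, between MITF and MLANA, and between MLANA and SOX10. Among protein-coding genes of the table, GPNMB per kilobase stood at the 82.4 percentile in 2D and the 46.7 percentile in 3D, and PMEL moved from the 59.4 to the 81.2 percentile. The plot of normalised counts by gene shows every library.

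**Figure D1:**
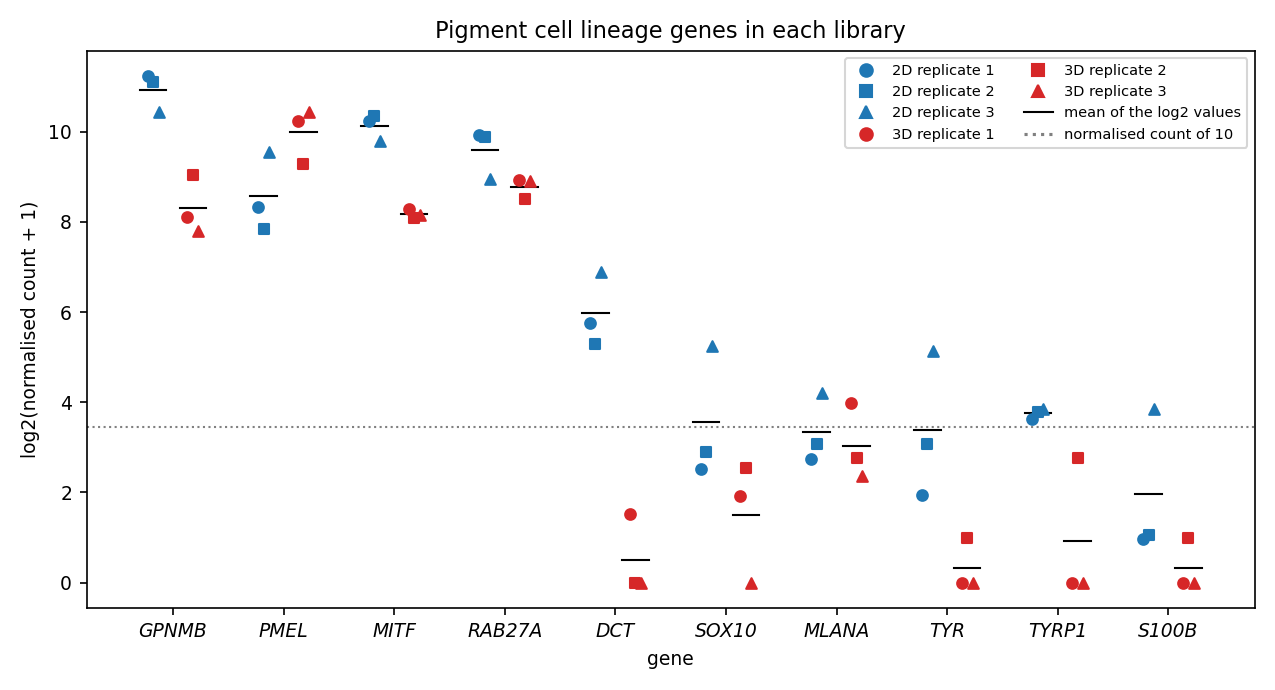
Normalised counts of the 10 genes on a log2(value + 1) axis in each library, with genes on the horizontal axis ordered by their mean, 2D in blue, 3D in red, 1 marker shape per replicate number, the mean of the log2 values as a line and a normalised count of 10 dotted. GPNMB, MITF and DCT lie lower in all 3D libraries than in all 2D libraries, and 2D-3 lies above the other 2D libraries for 7 of the 10 genes.

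The label of a melanoma line was checked against these markers and against markers of other cell types. SOX10 had 37.0 normalised counts in 2D-3 and 0 to 6.41 elsewhere, S100B 13.4 in 2D-3 and 0 to 1.07 elsewhere, and MLANA 4.13 to 17.5. PAX3 was at 0 in 5 libraries with 6.17 in 2D-3. The epithelial keratins KRT8 (13270 to 44355), KRT18 (8502 to 14848) and KRT19 (2923 to 6205) were abundant in both cultures. The summed level of the 6 mammary epithelial markers ran from 25829 to 65870 in 2D and from 33939 to 44953 in 3D, with GATA3 under 100 in every library. In that list ESR1 and EPCAM fell in 3D (limma, adjusted p = 0.0095 and 0.0074). The keratinocyte markers summed to 953 to 2137 in 2D and 757 to 1316 in 3D, most of it KRT10. Leukocyte markers summed to 22.9 to 66.8 in 2D and 68.8 to 129 in 3D, with PTPRC and CD14 under 100 in every library. Endothelial markers summed to 52.3 to 321 and 141 to 188, and the fibroblast markers with a row, chiefly COL1A1 and COL3A1, to 1980 to 6003 and 8282 to 11966, with DCN near 0. COL3A1 and the endothelial PECAM1 rose in 3D (limma, adjusted p = 0.0065 and 0.0040), though PECAM1 passed the filter on low values only through its level in 3D. The endothelial CDH5 (103 ± 144 in 2D, 20.8 ± 1.18 in 3D) and VWF (31.0 ± 8.41 and 17.7 ± 7.43) had lower means in 3D. Both overlapped between cultures and did not pass. CDH5 had 268 in 2D-3, against 25.7 and 13.9 in 2D-1 and 2D-2, which lay on either side of its 3D values (19.5, 21.3 and 21.7). KDR, TEK and CLDN5 were too low to test. Of the 10 genes, SOX10, MLANA, S100B, TYR and TYRP1 were thus low in a line labelled as melanoma, SOX10, TYR and S100B less so in 2D-3. No other melanoma line was measured here for comparison. DCT was present in all 2D libraries, and MITF, PMEL, GPNMB and RAB27A were present in all 6. What part the other lists have in the results below was not tested.

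Of the 5 tested genes, MITF, GPNMB and DCT fell in the spheres, and none rose. Calls were made with limma at a Benjamini-Hochberg adjusted p under 0.05, and 24.1% of all 15598 tested genes were called, 11.6% as lower and 12.5% as higher. At an unadjusted p under 0.05, 1 of the 5, PMEL, was higher, and DESeq2 called it where edgeR did not. The median log2 change of the 5 was -1.95, against -0.02 over all tested genes. The 5 had passed the filter on low values, DCT only through its level in 2D, so these figures do not describe all 10 genes. Cultures did not overlap, with 3D lower, for 6 of the 10 genes, against 14.6% of all 26748 genes, and they overlapped for the other 4. The 10 genes summed to 3749 to 4998 normalised counts in 2D and 1800 to 2369 in 3D. Most of this sum came from GPNMB, MITF, RAB27A and PMEL, so it does not describe the set as a whole. GPNMB had the largest difference, with means of 1996 in 2D and 342 in 3D, while PMEL went the other way (434 and 1071). In bulk RNA, fewer expressing cells and less RNA per cell cannot be told apart.

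Other fits called 2 to 6 of the 10 genes. Without the filter, where 8.59% of all genes were called higher and 6.32% lower, PMEL passed as higher and MITF, GPNMB, DCT, TYR and TYRP1 as lower. PMEL also passed as higher with libraries rescaled to equal totals and with DESeq2, where 8.03% and 8.92% of tested genes were lower and 15.3% and 15.1% higher. With the replicate number as a block, 20.7% of tested genes were called, 11.2% as higher and 9.45% as lower, and PMEL was called higher. Without 2D-3 and 3D-2 all 5 tested genes were called, PMEL as higher and the others as lower, but so were 58% of all tested genes, 28.4% as higher and 29.5% as lower. With a mean of at least 50, DCT was not tested and 2 genes were called.

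MITF, the regulator, had 1210, 1295 and 887 normalised counts in 2D-1, 2D-2 and 2D-3, and 309, 271 and 285 in 3D-1, 3D-2 and 3D-3. The lowest adherent library thus still held more than the highest sphere library, and the spheres lay close together. MITF (ENSG00000187098, chromosome 3, 69739435 to 69968337, GRCh38) fell from 1131 ± 215 to 288 ± 19.0 (SD, n = 3), a log2 change of -1.95 (SE 0.20, limma adjusted p = 0.00077). With 1 library left out, the change ran from -2.12 to -1.84 and the adjusted p from 4.3e-05 to 0.0075. Of its relatives in the MiT/TFE family, TFE3 had 2801 ± 320 and 2096 ± 139, and TFEB 393 ± 85.8 and 269 ± 70.1, and neither passed (limma, adjusted p = 0.094 and 0.16). Without 2D-3 both passed, at adjusted p of 0.015 and 0.037. TFEC, the third relative, was too low to test, at 7.62, 8.54 and 20.6 in 2D and 5.57, 4.85 and 1.03 in 3D.

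Among genes that act on MITF or on melanocyte development, of 43 tested regulators, 4 rose and 9 fell, with a median log2 change of -0.40 against -0.02 for all tested genes. That is 9.30% and 20.9%, against 12.5% and 11.6% of all tested genes. With equal totals 5 rose and 6 fell, and without 3D-1 3 and 3. ZEB2, a zinc finger factor of neural crest and melanocyte development, had 351, 379 and 194 normalised counts in 2D and 64.9, 41.7 and 70.2 in 3D, with no overlap. It fell by 2.34 on the log2 scale (SE 0.34, limma adjusted p = 0.0033). CRTC3, a coactivator of the cAMP-responsive factor CREB, fell from 5880 ± 526 to 2840 ± 44.7, and the acetyltransferase CREBBP from 5240 ± 2344 to 1822 ± 57.2. HES1, a Notch target, fell from 703 ± 375 to 203 ± 113. BHLHE40, a repressor that can act on MITF, rose from 921 ± 63.0 to 2071 ± 512, and PIAS3, which binds MITF, from 611 ± 195 to 1301 ± 75.2. MC1R, the melanocortin receptor upstream of cAMP, rose from 84.3 ± 52.7 to 189 ± 6.33, but 33.4% of its 75-base windows also occur in another gene, so its counts are uncertain. LEF1, which acts with MITF, had 26.5 ± 5.45 and 12.8 ± 6.11 and did not pass, and neither did CTNNB1 (beta-catenin), YY1 or SIK2.

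The number of called regulators depended on the libraries, at 8, 7, 24, 6 and 5 without 2D-1, 2D-2, 2D-3, 3D-1 and 3D-3. Calls over the whole table moved the same way, at 1549, 1793, 7111, 1307 and 1190 of 15598 genes, against 3766 with all libraries. ZEB2, CRTC3 and BHLHE40 kept their calls with any library left out. CREBBP and HES1 lost theirs without 3D-1 or 3D-3, PIAS3 without 3D-3, and MC1R without any library other than 2D-3. YY1 passed without 2D-3 (adjusted p = 0.029).

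SOX10, the crest factor upstream of MITF, had 4.77, 6.41 and 37.0 normalised counts in 2D and 2.78, 4.85 and 0 in 3D. All libraries other than 2D-3 held 6 reads or fewer, and the cultures overlapped. Of the 47 reads in 2D, 76.6% were in 2D-3. Summed over libraries, 2D had 6.11 times the level of 3D (47 against 8 reads, exact 95% binomial interval 2.86 to 14.98). Without 2D-3 the ratio was 2.13 (11 against 8 reads, interval 0.781 to 6.10), which includes equal levels, and without 3D-2 it was 10.8 (interval 3.49 to 54.4). These intervals cover counting error only. Fitted without the filter on low values, SOX10 did not pass (limma, adjusted p = 0.14). SOX10 (ENSG00000100146) lies on chromosome 22, 37970686 to 37987422, where 2.40% of its exon bases overlap POLR2F on the other strand, and this library type does not mark strand.

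Of 18 tested genes of glia and neural crest linked to SOX10, 1 rose and 4 fell (27.8% called, against 24.1% of all tested genes), with a median log2 change of -0.38. The median turned to 0.07 without 2D-3, where 2 rose and 5 fell, and was -0.06 with a mean of at least 50. MSX1, a homeobox factor of the crest, fell from 704 ± 86.2 to 309 ± 13.5, and MBP, a myelin protein, from 493 ± 32.6 to 226 ± 25.1. ERBB3, a neuregulin receptor of crest cells, fell from 1446 ± 91.1 to 833 ± 244. AQP1, a water channel, had 2.86, 0 and 21.6 in 2D and 99.3, 129 and 98.1 in 3D, and 24.4% of its 75-base windows also occur elsewhere, so its counts are uncertain. AQP1 passed the filter on low values only through its level in 3D. L1CAM, CNP and ITGA6, the most abundant members that did not pass, had 5026 ± 1569, 2138 ± 575 and 1527 ± 423 in 2D and 4791 ± 572, 1835 ± 185 and 1438 ± 405 in 3D. NGFR, the low-affinity neurotrophin receptor of crest cells, had 52.4, 74.7 and 234 in 2D and 174, 78.5 and 166 in 3D and did not pass (adjusted p = 0.60). Without 2D-1, 2D-2, 3D-1 and 3D-3, where fewer genes of the whole table were called as well, the calls numbered 3, 3, 3 and 2. Those of MSX1 and MBP held in each fit with a library left out, that of AQP1 was lost without 3D-3, and that of ERBB3 without any library other than 2D-3.

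S100B, the calcium-binding melanoma marker, had 0.953, 1.07 and 13.4 normalised counts in 2D and 0, 0.969 and 0 in 3D. That is 1, 1 and 13 reads against 0, 1 and 0, so nearly all of its reads were in 2D-3 (86.7% of the 2D reads). The ratio of 2D to 3D was 15.6 (15 against 1 read, exact 95% binomial interval 2.40 to 657), and 3.10 (interval 0.161 to 183) without 2D-3. It was 10.1 (interval 1.56 to 427) without 3D-1. Without 3D-2, which held the only read in 3D, the interval began at 2.48 (ratio of 3.46 with 3 reads as the limit). Without 2D-3, a change of S100B was not detectable at this depth.

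Other S100 genes were mostly higher in 3D. A list of the S100 family, which also holds the binding protein S100PBP, had 14 tested genes. Of these, 9 rose (64.3%, against 12.5% of all tested genes) and none fell with limma, with a median log2 change of 1.78. At an unadjusted p under 0.05, 1 of them, S100P, was lower, and DESeq2 called 1 as lower and edgeR none. Without 2D-3, limma called 10 as higher and 1 as lower, in a fit where 22.6% of all tested genes were higher and 23% lower. The filter on low values kept S100A9 only through its level in 3D. With a mean of at least 50, 6 of 11 genes rose and none fell, where 1328 of 12370 tested genes were higher. The median of the family was then 1.08, and it was 1.29 with a pseudocount of 10. S100A3 rose from 17.9 ± 7.13 to 103 ± 21.9, S100A14 from 33.2 ± 15.8 to 153 ± 6.44, and S100A2 from 70.5 ± 9.57 to 337 ± 172. S100A6 had 5749, 4343 and 8541 in 2D and 10802, 16810 and 11207 in 3D (log2 1.08, SE 0.29, limma adjusted p = 0.028). S100A10 had 1634, 1310 and 5027 against 5161, 8882 and 4671 and did not pass with all libraries (adjusted p = 0.058) but did without 2D-3 (adjusted p = 0.00058). S100A11 and S100A16 did not pass. Of the family 5, 4, 4 and 4 genes rose without 2D-1, 2D-2, 3D-1 and 3D-3, where fewer genes of the whole table rose as well. S100A3, S100A14 and S100A2 rose in each of the 6 fits, and S100A6 only in the fit without 2D-3.

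The enzymes of melanin synthesis had 118 normalised counts or fewer in every 2D library and 5.82 or fewer in every 3D library. DCT, the dopachrome tautomerase, had 53.4, 38.4 and 118 normalised counts in 2D and 1.86, 0 and 0 in 3D. All adherent libraries lay far above all sphere libraries, and 2D-3 was the highest. With 207 reads in 2D and 2 in 3D, the ratio was 108 (exact 95% binomial interval 29.4 to 895), and DCT (ENSG00000080166, chromosome 13, 94436808 to 94479682) fell with a limma adjusted p of 0.0014. Without 2D-3 the ratio was 71.3 (interval 19.2 to 598), and without 3D-2 it was 71.6 (interval 19.6 to 595). Without 3D-1, no read was left in 3D, and the interval began at 37.6. Taking 3 reads over the remaining 3D libraries as the limit gave a ratio of 46.6, which leaves out the counting error of 2D. The call held in each fit with a library left out (adjusted p of 0.00095 to 0.0099).

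TYR, the rate-limiting tyrosinase, had 2.86, 7.47 and 33.9 normalised counts in 2D and 0, 0.969 and 0 in 3D. The cultures did not overlap, but 76.7% of the 43 reads in 2D were in 2D-3. The ratio of 2D to 3D was 44.7 (43 against 1 read, exact 95% binomial interval 7.61 to 1808). Without 2D-3 it was 15.5 (10 against 1 read, interval 2.20 to 673) and without 3D-1 it was 29.1 (interval 4.95 to 1175). Without 3D-2, with no read left in 3D, the interval began at 7.72 (ratio of 9.91 with 3 reads as the limit). TYR (ENSG00000077498) lies on chromosome 11, 89177452 to 89295759.

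TYRP1, the tyrosinase-related protein that stabilises tyrosinase, was the steadiest of the 3 in 2D, at 11.4, 12.8 and 13.4 normalised counts. In 3D it had 0, 5.82 and 0, and all 6 reads were in 3D-2. The ratio of 2D to 3D was 6.42 (37 against 6 reads, exact 95% binomial interval 2.68 to 18.6), and 4.17 (interval 1.74 to 12.1) without 3D-1. Without 3D-2, with no read left in 3D, the interval began at 6.60 (ratio of 8.53 with 3 reads as the limit). Fitted without the filter, where 6.32% of 26748 genes were lower, TYR and TYRP1 passed as lower in 3D (limma, adjusted p = 0.029 and 0.035). TYRP1 (ENSG00000107165) lies on chromosome 9, 12685439 to 12710290, and 2.73% of its exon bases overlap LURAP1L-AS1 on the other strand.

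PMEL, whose fragments form the fibrils on which melanin is laid down, had 323, 227 and 753 normalised counts in 2D and 1215, 620 and 1377 in 3D. 2D-3 lay above 3D-2, so the cultures overlapped. PMEL (ENSG00000185664, chromosome 12, 55954105 to 55973317) had 434 ± 280 in 2D and 1071 ± 398 in 3D, a log2 difference of 1.41 (SE 0.45, limma adjusted p = 0.053), and did not pass. It passed as higher without 2D-3 (log2 1.90, adjusted p = 0.0022), a fit in which 22.6% of all tested genes were higher, and without 3D-2 (log2 1.76, adjusted p = 0.044). Without any of the other libraries its adjusted p was up to 0.18. PMEL shares 2.28% of its exon bases with CDK2 on the other strand. CDK2, itself a reported MITF target, fell (limma, adjusted p = 0.023).

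MLANA, also called Melan-A, had 5.72, 7.47 and 17.5 normalised counts in 2D and 14.8, 5.82 and 4.13 in 3D. The cultures overlapped fully, and the ratio of 2D to 3D was 1.20 (30 against 26 reads, exact 95% binomial interval 0.686 to 2.11). It was 0.775 (interval 0.366 to 1.56) without 2D-3 and 2.03 (interval 0.965 to 4.65) without 3D-1, and every one of these intervals includes equal levels. MLANA (ENSG00000120215) lies on chromosome 9, 5890802 to 5910606.

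GPNMB, a lysosomal and melanosomal glycoprotein related to PMEL, had 2410, 2193 and 1384 normalised counts in 2D and 274, 529 and 222 in 3D. The lowest adherent library stood well above the highest sphere library. GPNMB (ENSG00000136235, chromosome 7, 23235967 to 23275108) fell from 1996 ± 541 to 342 ± 165, a log2 change of -2.61 (SE 0.34, limma adjusted p = 0.0022). With a library left out the change was -2.97 to -2.35, and the adjusted p was 0.00030 to 0.013. PMEL and GPNMB, which are related in sequence, thus had log2 differences of opposite sign.

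Of 45 tested lysosomal genes of the same MiT/TFE network, 4 rose and 3 fell. That is 15.6% called, against 24.1% of all tested genes. Their median log2 change was 0.09, and -0.04 without 3D-2. SGSH, a heparan sulfate sulfamidase, rose from 745 ± 121 to 1665 ± 203 (limma, adjusted p = 0.0048) and did so in each fit with a library left out. CD63, a tetraspanin of lysosomes and melanosomes, rose from 5448 ± 604 to 8741 ± 1206, the glucosidase GAA from 2018 ± 298 to 3512 ± 880, and the protease CTSD, with 34.3% of windows shared with another gene, from 655 ± 108 to 1043 ± 183. SQSTM1, an autophagy receptor, fell from 1476 ± 91.3 to 617 ± 339, the proton pump subunit ATP6V1B2 from 2842 ± 323 to 1797 ± 476, and RRAGC, a GTPase of nutrient sensing with 21.8% of windows shared, from 259 ± 73.0 to 125 ± 11.8. PSAP and CTSZ did not pass, nor did GRN (4590 ± 3204 and 8225 ± 1188), which passed without 2D-3 (adjusted p = 0.00020). The calls numbered 1, 1, 15, 1 and 2 without 2D-1, 2D-2, 2D-3, 3D-1 and 3D-3. Over the whole table calls were also more without 2D-3 and fewer in the other fits. SQSTM1 lost its call without 2D-1, 2D-2 or 3D-1. GAA and ATP6V1B2 lost theirs without any of these or 3D-3, and CD63, CTSD and RRAGC without any library other than 2D-3. With libraries rescaled to equal totals, 7 rose and 1 fell, and the median was 0.22 against 0.11 for all tested genes.

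RAB27A, the GTPase that tethers melanosomes to myosin Va through melanophilin, had 975, 945 and 492 normalised counts in 2D and 490, 361 and 481 in 3D. 2D-1 and 2D-2 lay well above the spheres, while 2D-3 lay just above the highest of them. RAB27A (ENSG00000069974, chromosome 15, 55202966 to 55319113) had 804 ± 270 in 2D and 444 ± 72.2 in 3D, a log2 difference of -0.80 (SE 0.29, limma adjusted p = 0.072), and did not pass. Without 2D-3 it passed as lower (log2 -1.12, adjusted p = 0.0017), a fit in which 23% of all tested genes were lower, and without any other single library its adjusted p was up to 0.24. The plot of log2 changes by fit shows these dependences for the 5 tested genes. Of its exon bases, 3.26% overlap PIGBOS1 and 2.75% overlap PIGB.

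**Figure D2:**
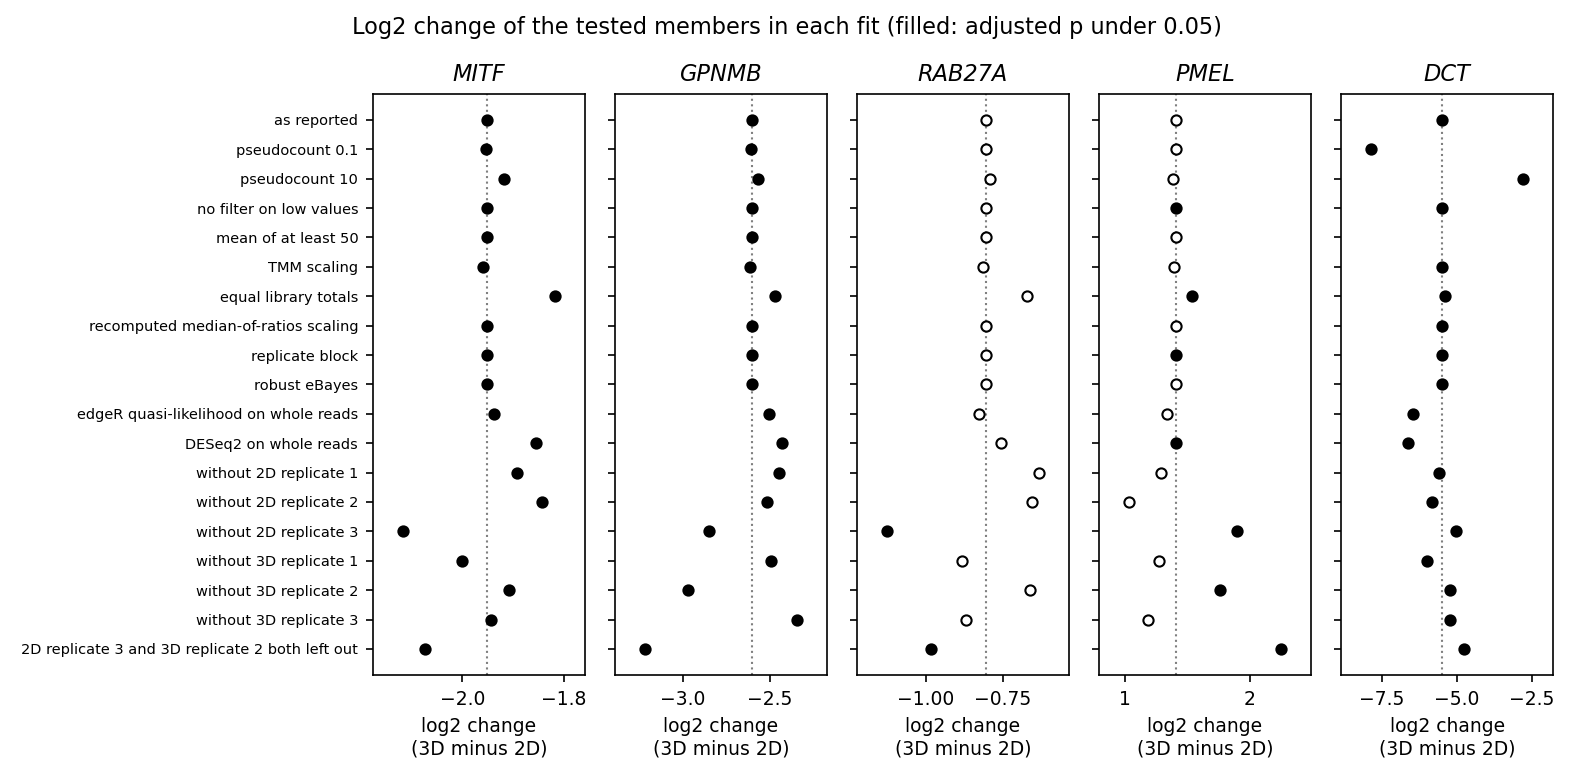
Log2 change (3D minus 2D, horizontal axis) of the 5 tested genes in the fit as reported and in each alternative (rows), with filled points for an adjusted p under 0.05 and the reported value dotted. MITF and GPNMB are filled in every row, DCT in every row in which it was tested, PMEL in some rows, and RAB27A only where 2D-3 is left out.

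Of 31 tested partners and effectors of RAB27A, 4 rose (12.9%, against 12.5% of all tested genes) and 6 fell (19.4%, against 11.6%), with a median log2 change of 0.06. The counts were 10 and 7 without 2D-3, and 1 and 5 without 3D-2. MYO5A, the myosin Va motor of melanosome transport, had 1042, 1407 and 1205 in 2D and 573, 786 and 501 in 3D and fell (log2 -0.99, SE 0.22, limma adjusted p = 0.015). SPIRE1, an actin nucleator that works with it, fell from 874 ± 295 to 390 ± 49.3, KIF5B, a microtubule motor, from 4442 ± 265 to 2764 ± 410, and the syntaxin STX11 from 136 ± 38.3 to 37.5 ± 4.35. SYTL4, the effector granuphilin, rose from 173 ± 30.9 to 532 ± 92.2 (adjusted p = 0.0031). RAB3D, a secretory GTPase, rose from 346 ± 49.9 to 658 ± 200, TBC1D10C from 22.2 ± 16.6 to 107 ± 28.1, and the myosin MYO7A from 90.0 ± 39.9 to 200.3 ± 34.0. UNC13D, MADD and RAB1A did not pass, though UNC13D and MADD passed as higher without 2D-3 (adjusted p = 0.016 and 0.042). SYTL4 and STX11 kept their calls in each fit with a library left out. MYO5A lost its call without 2D-2, 3D-1 or 3D-3, KIF5B without any of these or 2D-1, TBC1D10C without any of the 3D libraries, and RAB3D, MYO7A and SPIRE1 without any library other than 2D-3. The calls numbered 4, 3, 17, 2, 6 and 2 without 2D-1, 2D-2 and 2D-3 and 3D-1, 3D-2 and 3D-3. Over the whole table calls were also more without 2D-3 and fewer in the other fits.

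Of 40 tested genes of melanosome biogenesis, ion transport and cargo delivery, 3 rose and 6 fell. That is 22.5% called, close to the 24.1% of all tested genes. Their median log2 change was -0.16, and -0.04 without 2D-3, where 8 rose and 10 fell. HPS5, a subunit of the BLOC-2 complex that delivers cargo to melanosomes, had 2157, 2001 and 2872 in 2D and 844, 1035 and 733 in 3D. It fell by 1.42 on the log2 scale (SE 0.21, limma adjusted p = 0.0032). BACE2, the protease that cleaves PMEL, fell from 2585 ± 57.7 to 1509 ± 110, KIF13A, a kinesin of melanosome cargo, from 1093 ± 197 to 624 ± 2.24, and AP3M1, an adaptor subunit, from 2171 ± 414 to 1247 ± 68.1. LYST, the lysosomal trafficking regulator, rose from 233 ± 46.8 to 508 ± 62.1, and APOE, on which PMEL fibrils are nucleated, from 471 ± 168 to 1087 ± 343. RAB7A, AP3D1 and AP1M1 were abundant and did not pass. The calls numbered 4, 3, 18, 2 and 3 without 2D-1, 2D-2, 2D-3, 3D-1 and 3D-3. Over the whole table calls were also more without 2D-3 and fewer in the other fits. HPS5 and BACE2 kept their calls throughout, LYST lost its call without 3D-1, APOE without 2D-2, 3D-1 or 3D-3, and KIF13A and AP3M1 without any of these or 2D-1.

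Of 49 tested genes reported as MITF targets outside the 10, 12 rose (24.5%, against 12.5% of all tested genes) and 6 fell (12.2%, against 11.6%), with a median log2 change of 0.10. The counts changed with the libraries. Without 2D-1, 4 rose and 5 fell, without 2D-2 3 and 5, without 3D-1 3 and 5, and without 3D-3 2 and 5. Over all 15598 tested genes, these fits called 830, 1025, 609 and 534 as higher and 719, 768, 698 and 656 as lower. Without 2D-3, 17 rose and 9 fell, against 3526 and 3585 of all tested genes. Without 3D-2, 8 rose and 5 fell, against 1576 and 1409. NR4A3, a nuclear receptor, had 1254, 1445 and 798 in 2D and 135, 116 and 128 in 3D, and fell by 3.16 on the log2 scale (SE 0.25, limma adjusted p = 0.00037). MET, the hepatocyte growth factor receptor, fell from 3363 ± 171 to 676 ± 168, PLK1, a mitotic kinase, from 2857 ± 244 to 1007 ± 175, and SORT1, a sorting receptor, from 1954 ± 138 to 922 ± 91.9. SCD, the stearoyl-CoA desaturase, rose from 19726 ± 3057 to 41344 ± 2221, TMC6 from 1099 ± 129 to 2254 ± 264, AMDHD2 from 135 ± 28.5 to 277 ± 46.8, and the adhesion molecule CEACAM1 from 17.9 ± 12.3 to 102 ± 67.9. HIF1A and DIAPH1 did not pass, nor did CDKN2A (4030 ± 1438 and 5795 ± 795), which passed without 2D-3 (adjusted p = 0.0058). NR4A3, MET, PLK1, SORT1 and TMC6 kept their calls in each fit with a library left out. SCD lost its call without 3D-1 or 3D-3, AMDHD2 without 2D-1 or 2D-2 or 3D-1 or 3D-3, and CEACAM1 without 2D-1 or 2D-2 or 3D-2 or 3D-3.

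Of 46 tested genes reported high in melanoma cells with little MITF, 10 rose (21.7%) and 16 fell (34.8%). Over all tested genes, 12.5% rose and 11.6% fell. The median log2 change of the list was -0.06. The median was 0.08 without 2D-3, where 14 rose and 16 fell. AXL, the receptor kinase whose level is often set against that of MITF, had 2954, 2705 and 2429 in 2D and 978, 1661 and 1005 in 3D, with no overlap. It fell by 1.19 on the log2 scale (SE 0.23, limma adjusted p = 0.0093), so MITF and AXL both fell, although the call of AXL was lost without 3D-3 (adjusted p = 0.052). KRT7, an epithelial keratin, had 15818, 12842 and 5310 in 2D and 902, 783 and 1032 in 3D, and BDNF, a neurotrophin, fell from 2218 ± 965 to 188 ± 6.67. SMAD3, which transmits TGF-beta signals, fell from 1185 ± 128 to 318 ± 67.9, and AJUBA, a LIM protein, from 3917 ± 1548 to 540 ± 37.6. FN1, fibronectin, had 451, 599 and 1037 in 2D and 6326, 12066 and 5464 in 3D, and the integrin subunits ITGA2 and ITGA5 rose from 282 ± 55.7 to 1088 ± 237 and from 2159 ± 508 to 4168 ± 205. SPARC, a matrix protein, rose from 1625 ± 1170 to 4530 ± 407. KRT18 and ITGA3 did not pass, nor did VIM (3327 ± 1081 and 4310 ± 397), which passed without 2D-3 (adjusted p = 0.0057). Without 2D-1, 2D-2, 3D-1 and 3D-3, where fewer genes of the whole table were called as well, the calls numbered 17, 17, 16 and 11. KRT7, BDNF, SMAD3, AJUBA, FN1 and ITGA2 kept theirs throughout. ITGA5 lost its call without 3D-1 or 3D-3, and SPARC without any library other than 2D-3. The plot of log2 changes by list shows the spread of each list.

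**Figure D3:**
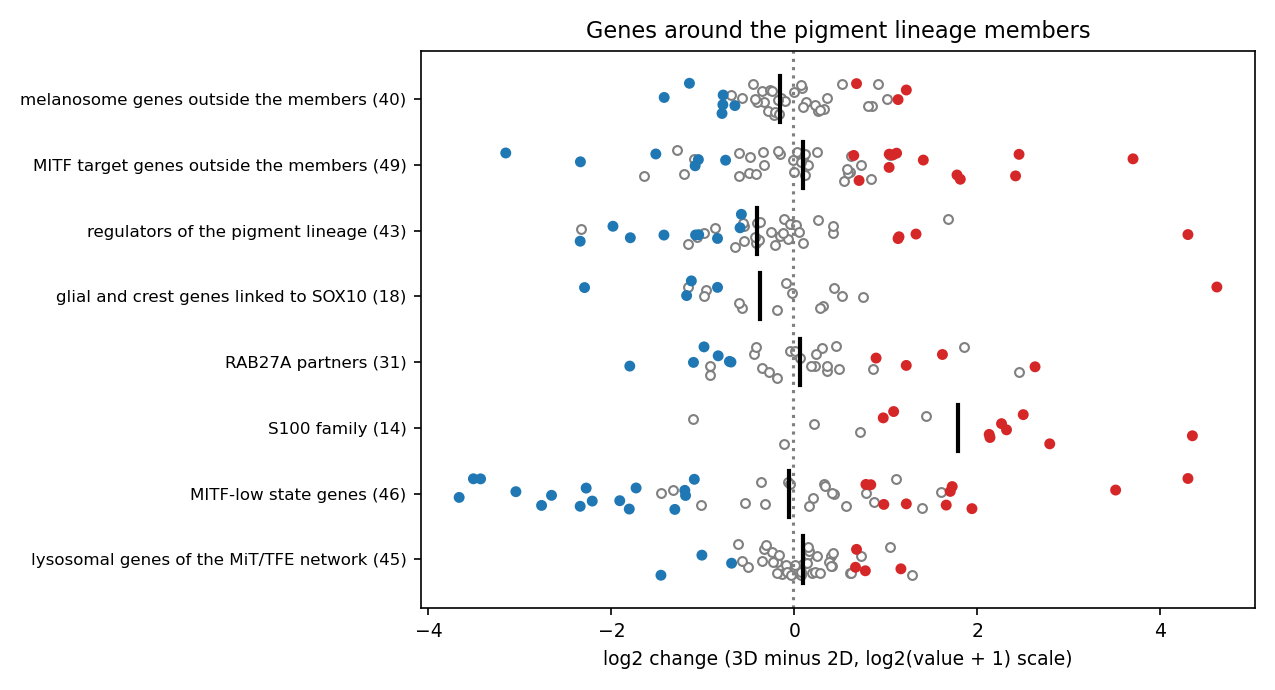
Log2 change (3D minus 2D, log2(value + 1) scale, horizontal axis) of the tested genes of 8 lists, with the number tested in brackets, genes that rose in red, genes that fell in blue, others open, the median of each list as a bar and the median of all tested genes dotted. The S100 family has its median at 1.78, while the other medians lie between -0.40 and 0.10. With a mean of at least 50, the median of the S100 family was 1.08.

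2D-3 split the 10 genes. It lay above both other 2D libraries for 7 of them and below both for MITF, GPNMB and RAB27A. Relative to the mean of 2D-1 and 2D-2, 2D-3 had 13.2 times the level of S100B, 6.63 times that of SOX10 and 6.57 times that of TYR. PMEL, MLANA and DCT had 2.73, 2.65 and 2.58 times the level, and TYRP1 1.10 times. MITF, GPNMB and RAB27A had 0.708, 0.601 and 0.513 times the level. For MITF, GPNMB, RAB27A and PMEL, 2D-3 was nearer to the 3D libraries than the other adherent libraries were. For DCT, TYR, SOX10 and S100B it lay farther from them. The plot of 2D-3 against the spheres shows this split.

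**Figure D4:**
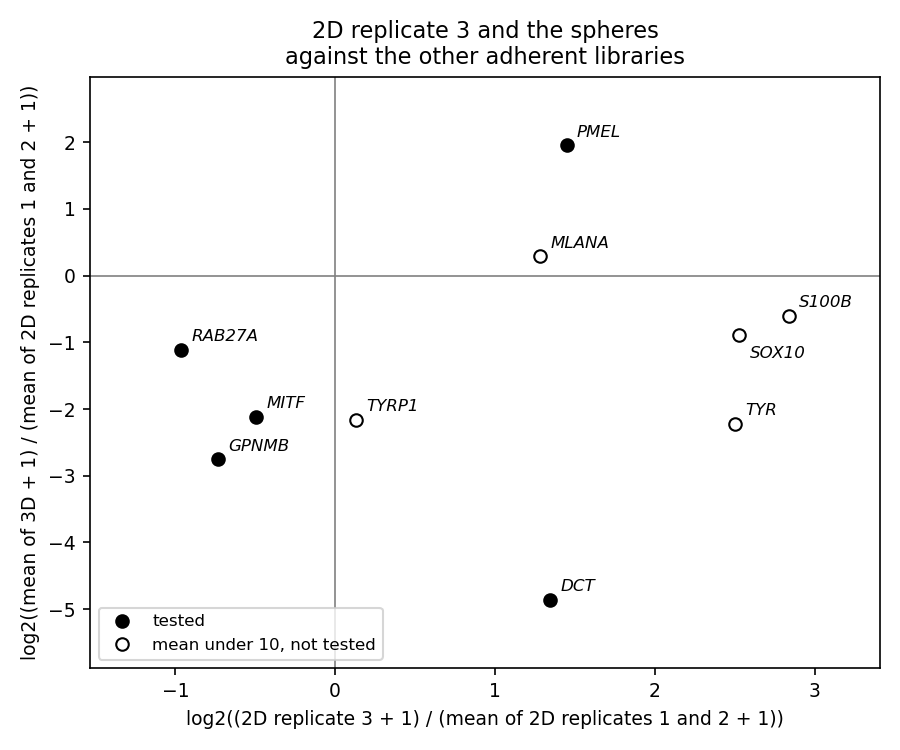
Each point is 1 of the 10 genes: horizontally the log2 ratio of 2D-3 to the mean of 2D-1 and 2D-2, vertically the log2 ratio of the 3D mean to the same reference, both with 1 added to each value. MITF, GPNMB and RAB27A lie at the lower left, and PMEL at the upper right. DCT, TYR, SOX10 and S100B lie at the lower right, with 2D-3 above the reference and the 3D mean below it. For SOX10 and S100B, the intervals of 2D to 3D without 2D-3 (0.781 to 6.10 and 0.161 to 183) include equal levels.

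The genes whose log2 values followed MITF most closely over the 6 libraries, out of 10464 protein-coding genes with a mean of at least 100, were MAP7 (r = 0.9998), NR4A3 (r = 0.9997), SMAD4 (r = 0.998), TMEM52B (r = 0.998) and SWAP70 (r = 0.998). For TYR they were FARP1 (r = 0.998), FAM120A (r = 0.996), BUB1 (r = 0.995), CTNND1 (r = 0.995) and PARP4 (r = 0.994). For SOX10 they were NRG4 (r = 0.990), CAND1 (r = 0.990), VIRMA (r = 0.984), SGO1 (r = 0.981) and MCUR1 (r = 0.980). These are descriptions over 6 libraries that share a culture in sets of 3, and those of SOX10 and TYR rest on few reads.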

How the data were processed

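Polyadenylated RNA of 6 libraries, 3 per culture, was prepared with an Illumina TruSeq kit and sequenced on a NovaSeq, per the labels' protocols. The kit is of a kind that does not mark strand. The submitters' processing notes name HISAT2, featureCounts 1.5.0, DESeq2 and GRCh38. Their annotation is not given in the sources used here. Deposited signal is a read count divided by 1 size factor per library. The values show this division by the authors: 100% were whole multiples of 1 step per library within 0.01 of a read. A further 6 empty columns were not used. Symbols were found for 26506 of 26748 genes, and positions and exon lengths came from GENCODE 29.

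The 15598 genes whose mean reached 10 normalised counts were tested with limma 3.58.1 in R 4.3.3, on log2(value + 1) with an intensity trend. The model held culture alone, and p-values were adjusted by Benjamini-Hochberg at 0.05. Fold changes on this scale understate the change of low genes. Genes under the filter are given as ratios of summed reads over summed size factors, with exact 95% binomial intervals (scipy 1.17.1). The limit for a count of 0 is 3 reads summed over a culture. From each of 8 lists, up to 4 called genes per direction were named (smallest adjusted p, a mean of 100 or more in one culture), with the 3 most abundant others. TFEB, TFE3, TFEC, PAX3, LEF1, ZEB2, AXL and NGFR were named whatever their values, and so were the 5 genes most alike SOX10, MITF and TYR. The members and lists were chosen with earlier results of these data known, and 10 genes are in more than 1 list. Windows of 75 bases were compared over GENCODE 29 transcripts. Alternatives were 18 other fits, among them edgeR 4.0.16 and DESeq2 1.42.0 on the recovered whole reads. edgeR called 3657 genes. The workflow was tested on simulated counts.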

Additional observations from a re-analysis of the deposited data

How the results depend on the processing

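MITF and GPNMB kept their direction and call in all 18 alternatives, and DCT in the 17 in which it was tested. A mean of at least 50 left DCT untested. PMEL kept its direction in all 18 but passed in 7, with adjusted p of 9.3e-07 to 0.18, and RAB27A in 2, with adjusted p of 9.1e-05 to 0.24. Of the 10 genes, 3 were called in the fit as reported, 6 without a filter on low values (1 higher, 5 lower) and 5 without 2D-3 and 3D-2 (1 higher, 4 lower). With 1 library left out, 3 to 5 were called. With both libraries out, 58% of all tested genes were called. In that fit the called genes were 26 of 40 in the melanosome list, 28 of 49 MITF targets and 28 of 43 regulators. They were also 9 of 18 in the glial and crest list, 20 of 31 RAB27A partners and 20 of 45 in the lysosomal list. With 1 library left out, calls in these lists ran from 2 to 18, 7 to 26, 5 to 24, 2 to 7, 2 to 17 and 1 to 15. They ran from 4 to 11 in the S100 family and from 11 to 30 in the list of MITF-low genes. The count over all genes ran from 1190 without 3D-3 to 7111 without 2D-3, against 3766. The cause was not tested.

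With libraries rescaled to equal totals, the median of all genes rose by 0.13, to 0.11 on the log2 scale, and 2392 genes were higher and 1253 lower, against 1950 and 1816. DESeq2 gave 2356 and 1391, with a median of 0.08. PMEL then passed under both (adjusted p = 0.042 and 0.0059), and the median of the MITF-low list changed sign, from -0.06 to 0.07 with equal totals and 0.06 with DESeq2. Among the named list genes, ERBB3, SQSTM1, ATP6V1B2, AP3M1, KIF5B, MC1R, CD63 and CTSD lost their calls under at least 1 alternative other than leaving out a library. Deviations of same-numbered libraries from their culture means correlated weakly (r of -0.08, -0.14 and 0.04 for replicates 1, 2 and 3). With 3 libraries per culture, these values cannot tell whether same-numbered libraries were prepared together, and the labels do not say. With the replicate number as a block, 3222 genes were called, and PMEL passed (log2 1.41, adjusted p = 0.0076). Depth limits SOX10, TYR, TYRP1, MLANA and S100B, with 3 reads worth 2.78 to 3.20 normalised counts.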

Other observations

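Several genes of the lists outside the naming rule were singled out after their values were seen. SOX9, a crest and cartilage factor, had 2.86, 0 and 6.17 normalised counts in 2D-1 to 2D-3 and 53.8, 82.4 and 45.4 in 3D-1 to 3D-3. It rose (limma, adjusted p = 0.0058) and did so in each fit with a library left out. S100A9, a calgranulin, had 3.81, 5.34 and 0 in 2D and 58.5, 47.5 and 88.8 in 3D, and also rose in each of these fits. S100A4 had 1421, 1122 and 13636 in 2D and 16077, 27467 and 16348 in 3D. Its 2D-3 value lay near the spheres, and its rise (limma, adjusted p = 0.039) was lost with edgeR, with DESeq2 and without any library other than 2D-3. BIRC7, an inhibitor of apoptosis reported as an MITF target, was at 0 in 2D-1 and 2D-2 with 3.08 in 2D-3, and had 14.8, 19.4 and 26.8 in 3D. It rose (limma, adjusted p = 0.0098), a call lost without 3D-3. SOX9, S100A9 and BIRC7 passed the filter on low values only through their level in 3D. As they were also picked by their values, their adjusted p-values are descriptive only.

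CCN1 and CCN2, matricellular genes of the YAP response, had their highest value in 2D-3. CCN1 had 2415, 2214 and 18821 in 2D and 332, 1283 and 418 in 3D. CCN2 had 274, 328 and 3321 in 2D and 20.4, 158 and 42.3 in 3D. Like DCT, TYR, SOX10 and S100B, they were high in that library and low in the spheres. Both fell (limma, adjusted p = 0.030 and 0.032), calls lost without 3D-1 or 3D-3.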
